A study of Mus musculus with 59 samples.

Results

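Primary mouse microglia that lacked the kinase Tbk1 were compared with wild-type microglia after lipopolysaccharide (LPS), the cell wall component that activates Toll-like receptor 4. The comparison holds 10 of the 59 libraries of the series, taken by their titles: the 5 labelled KO_LPS (called KO below) and the 5 labelled WT_LPS (called WT). Per the labels, KO cultures were Tbk1 fl/fl with a Cre recombinase under the control of Cx3cr1. WT cultures were Tbk1 fl/fl without that Cre. A HET group of 5 libraries was used for values and calls beside this comparison and in the shared estimate of the spread. Its cultures were Tbk1 fl/+ with the Cre. All carried at least 1 floxed Tbk1 allele, and only KO and HET carried Cre, so a difference between KO and WT also holds the presence of Cre. The cells came from newborn pups, were plated for 16 h and received LPS at 100 ng/mL for 24 h, and each library stands for 1 of 5 independent cultures of its genotype. Whether those cultures came from separate animals or pools the labels do not say. The p-values for genes measure a spread between cultures, estimated over all 44 libraries of 9 groups and not over these 10 alone.

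Microglia are the resident macrophages of the brain. When LPS binds Toll-like receptor 4, the adaptor MyD88 leads to NF-kB and inflammatory cytokines, while the adaptor TRIF leads to the kinases TBK1 and IKK-epsilon, which activate the transcription factor IRF3 and thereby the gene of interferon beta. Secreted interferon then acts through its receptor on a complex with STAT2 and IRF9, which binds the interferon-stimulated response element (ISRE) in the promoters of interferon-stimulated genes. TBK1 also phosphorylates autophagy receptors and restrains the cell death kinase RIPK1, and loss-of-function variants of the human gene are a known cause of amyotrophic lateral sclerosis with frontotemporal dementia.

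Some promoters of the genes that were lowest in KO hold the letters of this element. Among the 25 genes with the lowest differences, 20 had a promoter in the RefSeq table used here (GRCm38.p6, 250 bases upstream of a start), and 8 of those 20 held GAAA followed after 2 bases by another GAAA, on either strand. Stretches of 60 bases from 4 of the 8 are printed because the loss of their transcripts in KO is described below; they run 5′ to 3′ on the strand of the gene, and capitals mark the element.
Ifit1bl1 (chr19:34602038-34602097, minus strand): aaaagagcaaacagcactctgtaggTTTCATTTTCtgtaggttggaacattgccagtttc
Cxcl10 (chr5:92349068-92349127, minus strand): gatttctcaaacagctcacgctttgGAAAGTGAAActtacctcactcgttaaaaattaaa
Rsad2 (chr12:26456538-26456597, minus strand): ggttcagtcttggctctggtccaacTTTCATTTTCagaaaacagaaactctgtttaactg
Oas3 (chr5:120777700-120777759, minus strand): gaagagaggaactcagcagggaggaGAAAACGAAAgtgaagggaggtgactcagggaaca
The same letters stood in 367 of the 10787 tested genes with a promoter in the table (3.40%). They stood in 63 of 336 genes called lower by at least 1 on the log2 scale (18.8%), in 7 of 289 called higher by at least 1 (2.42%) and in 207 of 7470 not called (2.77%). Of the 25 genes with the highest differences, 15 had a promoter in the table and 0 of those held the element. A match describes the letters and does not show that a factor was bound.

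The values are in TPM, the share of all transcripts in a library after scaling for gene length, so a change in a few abundant genes shifts the shares of all others and the depth of each library is unknown. Differences are KO minus WT of log2(TPM + 1), given as estimate ± SE from limma, and a gene is called where the p-value adjusted over all 15908 genes tested was under 0.05. Group means are given ± SD with n = 5, or n = 4 for untreated WT, and a value given for an analysis without a library is its log2 difference there. The gene lists were assembled for this work. Where all values are listed, they follow the library numbers 1 to 5. In such bulk samples, fewer cells of a type and less RNA per cell cannot be told apart.

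Genes at 1 TPM or more numbered 12616 to 13542 over the 10 libraries, and no library repeated another (highest Pearson correlation across genes among the LPS libraries 0.988). The mitochondrial genome took 3.78% ± 1.26 of the summed TPM in KO and 2.34% ± 0.23 in WT (exact permutation test, two-sided, p = 0.0397, adjusted over 4 such measures p = 0.0794), and the 50 most abundant genes took 36.2% ± 1.27 and 33.5% ± 1.47 (exact p = 0.0238, adjusted p = 0.0794). KO library 1 stood apart from the other KO libraries and had the lowest Tbk1 of the 5. It also had the highest mean level of the IFIT, OAS, Schlafen and guanylate-binding lists, with KO library 3 next. Not every interferon-stimulated gene followed this order, and Ifi27 was lowest in KO library 1. Macrophage genes identified all cultures, since the summed level of 12 microglia and macrophage markers was 9103 to 11908 TPM in KO and 7625 to 8944 TPM in WT (4 called higher and 1 lower, or 3 lower without KO library 1). The summed levels of astrocyte, oligodendrocyte lineage, neuronal, endothelial and stromal, and neutrophil markers overlapped between the groups, and lymphocyte markers summed to at most 1.22 TPM. The 11 tested markers of astrocytes and the 14 of the oligodendrocyte lineage were not called. Of the tested markers of neurons 1 of 10 was lower, of endothelial and stromal cells, which summed to at most 18.4 TPM, 4 of 9 were lower and 1 higher, and of neutrophils 2 of 3 were higher (sums of 168 to 317 TPM in KO and 126 to 245 TPM in WT). Markers of border macrophages and monocytes summed to 1819 to 2982 TPM in KO and 552 to 827 TPM in WT. Of their 8 tested members, 4 were called higher (Mrc1, Pf4, Ly6c2 and Clec4n) and Siglec1 lower, while Ccr2, F13a1 and Cbr2 were below 1 TPM in every library. So were the untested Lyve1, Cd163, Vsig4 and Cd209f, which makes 7 of the 12 markers of this list. The part of these markers in the results below was not tested.

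Of the 15908 genes, 2283 (14.4%) were called higher and 2100 (13.2%) lower in KO. These shares are the background for every count of list members. Differences of at least 1 on the log2 scale were called for 393 genes upward (2.47%) and 473 downward (2.97%), and past 3 the balance was 12 upward and 52 downward. All 5 KO libraries lay above all 5 WT libraries for 1202 genes (7.56%) and below them for 1369 (8.61%). The median log2 difference of all genes tested was 0.0073. Without KO library 1, 2557 genes were called higher and 1853 lower. The largest differences were thus mostly losses.

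**Figure D1:**
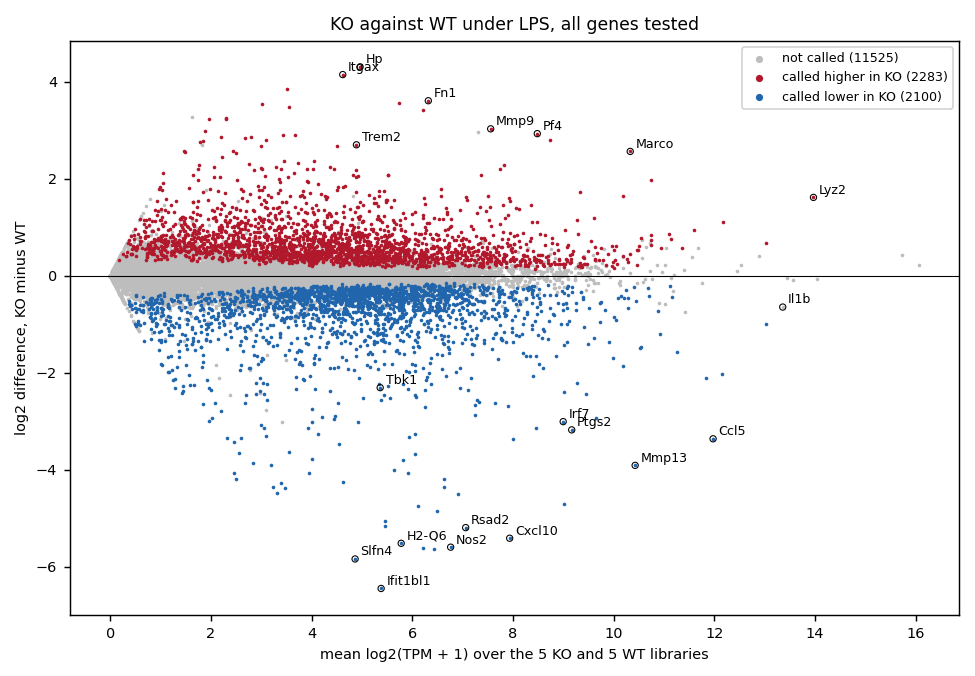
Every gene tested, with its mean level over the 10 libraries on the horizontal axis and its log2 difference, KO minus WT, on the vertical axis; red and blue points are genes called higher (2283) and lower (2100) in KO, grey points were not called. The downward tail reaches -6.45 (Ifit1bl1) and the upward tail 4.30 (Hp), and Il1b, near the right edge, was not called.

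The targeted gene followed its label. Tbk1 (chromosome 10, 121546455 to 121586794 in GRCm38.p6) stood at 12.1, 19.4, 17.7, 25.8 and 15.2 TPM in KO and 81.9, 98.2, 87.2, 85.9 and 101 TPM in WT, a log2 difference of -2.31 ± 0.14 (adjusted p = 4.24e-16). Every KO library was below every WT library, and HET libraries lay between them at 60.5 ± 4.08 TPM. The TPM value covers the whole gene and does not show which exons the remaining reads came from. Cx3cr1, the fractalkine receptor whose control region drives the Cre, stood at 47.3, 132, 53.8, 94.5 and 63.5 TPM in KO and 60.8, 25.3, 33.0, 35.0 and 22.0 TPM in WT, a log2 difference of 1.11 ± 0.21 (adjusted p = 4.37e-05). WT library 1 overlapped the KO range, and HET, which carries the same Cre, had 38.3 ± 9.90 TPM. A neighbour of this locus, named after its values were seen, is Rpsa, which encodes a ribosomal protein and lies 59469 bases beyond the end of Cx3cr1 on chromosome 9 (120127766 to 120132369). Rpsa stood at 1114, 1319.6, 1142, 1239 and 1113 TPM in KO and 638, 510.2, 508, 538 and 428 TPM in WT, a log2 difference of 1.18 ± 0.084 (adjusted p = 3.31e-14). Without LPS it was also called higher in KO, at 1839.7 ± 138 against 1144 ± 77.9 TPM, and HET with LPS was above WT at 838 ± 94.3 TPM (adjusted p = 1.2e-05). This difference was thus present in both groups with Cre, and in KO also without LPS.

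Upstream of TBK1, genes of the Toll-like receptor 4 complex itself were not called, while several of its adaptors and regulators were lower. Of 20 tested genes, 7 were called lower, against 13.2% of all genes tested, and 1 higher, with a median log2 difference of -0.17. The largest difference was that of Peli1, an E3 ubiquitin ligase of the pathway, which stood at 22.3, 18.4, 25.0, 17.8 and 16.4 TPM in KO and 92.7, 96.5, 98.6, 106 and 106 TPM in WT, a log2 difference of -2.28 ± 0.14 (adjusted p = 7.96e-16). Irak2, a kinase that sustains MyD88 signalling, stood at 68.4, 66.8, 50.8, 53.8 and 64.9 TPM in KO and 160.1, 165, 142, 143 and 152 TPM in WT, a log2 difference of -1.32 ± 0.11 (adjusted p = 1.55e-12). In both genes every KO value was far below every WT value. Ticam1, which encodes TRIF, was lower with a log2 difference of -0.66 ± 0.11 and Ticam2, its bridging adaptor TRAM, with -0.58 ± 0.16. Tirap, the bridging adaptor of MyD88, was lower with a log2 difference of -0.82 ± 0.11, the ubiquitin ligase Traf6 with -0.47 ± 0.11 and the raft protein Rftn1, which takes part in receptor uptake, with -0.88 ± 0.11. The receptor Tlr4 had 42.8 ± 20.9 TPM in KO and 30.5 ± 4.49 TPM in WT (log2 difference 0.34 ± 0.21, adjusted p = 0.25) and was called without KO library 1 alone among the alternatives, at 0.60. Its coreceptors Ly96 (log2 difference -0.16 ± 0.14) and Cd14 (-0.58 ± 0.23) were not called, though Cd14 passed in 5 of 16 alternative analyses, lowest without KO library 5 (-0.71). Myd88 (log2 difference -0.14 ± 0.11), the inhibitory kinase Irak3 (0.0092 ± 0.10), Irak4 (0.13 ± 0.09), Traf3 (0.0092 ± 0.10), Map3k7 (0.088 ± 0.12), Tab1 (0.25 ± 0.14), Tab2 (-0.18 ± 0.074), Tab3 (-0.26 ± 0.17) and Sarm1 (0.038 ± 0.24) were not called either, though Tab2 was called lower without KO library 3 (-0.22) or WT library 5 (-0.24). Irak1 was called higher at a log2 difference of 0.30 ± 0.10, and lost the call without WT library 5 (0.18), KO library 2 (0.26) or KO library 4 (0.28).

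Among the TBK1 and IKK kinases and their scaffolds, 6 of 12 tested genes were called lower, against 13.2% of all genes tested. The other 6 were not called (median log2 difference of the list -0.26). Tbkbp1, which encodes the TBK1 scaffold SINTBAD, stood at 31.1, 20.7, 22.4, 17.6 and 20.1 TPM in KO and 40.1, 44.7, 42.5, 41.0 and 39.2 TPM in WT, a log2 difference of -0.89 ± 0.11 (adjusted p = 3.86e-08). Azi2, which encodes the scaffold NAP1, stood at 77.4, 63.7, 75.6, 67.6 and 61.2 TPM in KO and 121, 114, 109.7, 111 and 116 TPM in WT, a log2 difference of -0.72 ± 0.089 (adjusted p = 2.05e-08). Both scaffolds were thus below WT in every KO library. The remaining scaffold, Tank, had 113 ± 11.9 TPM in KO and 115 ± 7.63 TPM in WT, and was not called (log2 difference -0.033 ± 0.089, adjusted p = 0.852). Ikbke, the closest relative of Tbk1, had 155 ± 11.3 TPM in KO and 195 ± 30.6 TPM in WT, without overlap, and was not called (log2 difference -0.32 ± 0.21, adjusted p = 0.289). Of the autophagy receptors that TBK1 phosphorylates, Sqstm1 (p62) was lower, at 485 ± 86.3 TPM in KO and 808 ± 219.6 TPM in WT (log2 difference -0.72 ± 0.15), Tax1bp1 was lower with -0.26 ± 0.075, and Optn, at 6.42 ± 0.971 TPM in KO and 6.03 ± 1.02 TPM in WT, was not called. Chuk was called lower with a log2 difference of -0.27 ± 0.096 and lost the call when KO library 1 or 5 or WT library 1, 2 or 4 was left out, at -0.20 without KO library 1. Chuk also lost it with no filter on low values. With quantile normalization, or with only the compared groups in the fit, neither Chuk nor Tax1bp1 was called. Ikbkb (log2 difference 0.23 ± 0.10), Ikbkg (0.51 ± 0.21) and the scaffold Ajuba (0.37 ± 0.15) were not called. Without KO library 1, Ikbkb and Ikbkg were called higher, at 0.34 and 0.85, Ikbkg also without WT library 5 (0.60), and Ajuba without KO library 2 (0.45).

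The interferon regulatory factors were not alike. Irf7, the factor that amplifies interferon production and is itself an interferon-stimulated gene, stood at 563, 98.4, 275, 117 and 103 TPM in KO and 1341, 1685, 1310.0, 1417 and 1529 TPM in WT, a log2 difference of -3.01 ± 0.30 (adjusted p = 1.57e-10). Irf3, the direct target of TBK1, stood at 51.4, 49.5, 43.2, 50.4 and 43.6 TPM in KO and 53.4, 45.8, 47.5, 42.0 and 39.6 TPM in WT and was not called (log2 difference 0.063 ± 0.098, adjusted p = 0.721), and its values interleaved in the groups. Irf9, the DNA-binding partner of STAT2, was lower with a log2 difference of -0.54 ± 0.075, and Irf8, a lineage factor of microglia, with -0.53 ± 0.082. Irf1 was called lower with a log2 difference of -0.50 ± 0.17 but not without KO library 5 (-0.35), KO library 4 (-0.44) or WT library 2 (-0.45). Irf2bp2, a corepressor of IRF2, was higher with a log2 difference of 0.72 ± 0.075, while Irf2 itself (-0.22 ± 0.096), Irf5 (-0.072 ± 0.11) and Irf4 (0.30 ± 0.19) were not called. Irf2 was called lower without KO library 1, KO library 3 or WT library 5, at -0.28 in the last case. In all, 4 of 9 tested members were lower and 1 higher, against 13.2% and 14.4% of all genes tested (median log2 difference -0.22). The transcript of interferon beta, Ifnb1, was between 0 and 1.47 TPM in the 10 libraries 24 h after LPS and was not tested.

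In interferon signalling, the receptor chains Ifnar1, Ifnar2 and Ifngr1 were called higher, and Stat2 and the brake Usp18 lower. Both chains of the type I interferon receptor were called higher: Ifnar1 stood at 117 ± 27.8 TPM in KO and 76.5 ± 6.71 TPM in WT (log2 difference 0.57 ± 0.11, adjusted p = 9.31e-05) and Ifnar2 at 176, 202, 202, 214 and 218 TPM in KO and 155, 159, 163, 159 and 151 TPM in WT (0.36 ± 0.063). Ifngr1, a chain of the receptor for interferon gamma, was higher with a log2 difference of 0.55 ± 0.11, and Ifngr2 was not called (0.093 ± 0.094). Ifngr1 lost the call with only the compared groups in the fit. Stat2 stood at 168, 71.6, 134, 74.8 and 48.8 TPM in KO and 225, 290.2, 236, 211 and 273 TPM in WT, a log2 difference of -1.43 ± 0.18 (adjusted p = 4.4e-08). Usp18, the deISGylating enzyme that also dampens the receptor, stood at 175, 40.6, 91.6, 41.6 and 38.6 TPM in KO and 399, 409, 388, 357 and 429.6 TPM in WT, a log2 difference of -2.61 ± 0.25 (adjusted p = 9.1e-11). In both genes KO libraries 1 and 3 were the nearest to WT. The kinases Jak1 (log2 difference -0.29 ± 0.093) and Tyk2 (-0.23 ± 0.074) and the phosphatase Ptpn6 (-0.29 ± 0.10) were called lower with small differences, and Jak2 was not called (0.086 ± 0.13). Jak1 lost the call without KO library 1 (-0.20), Tyk2 without WT library 5 (-0.20) and Ptpn6 without KO library 4 or 5 or WT library 1, 3 or 4, at -0.20 without WT library 1. Of the 11 tested members 3 were higher and 6 lower, against 14.4% and 13.2% of all genes tested. With quantile normalization 3 were lower, and with only the compared groups in the fit 2 were.

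**Figure D2:**
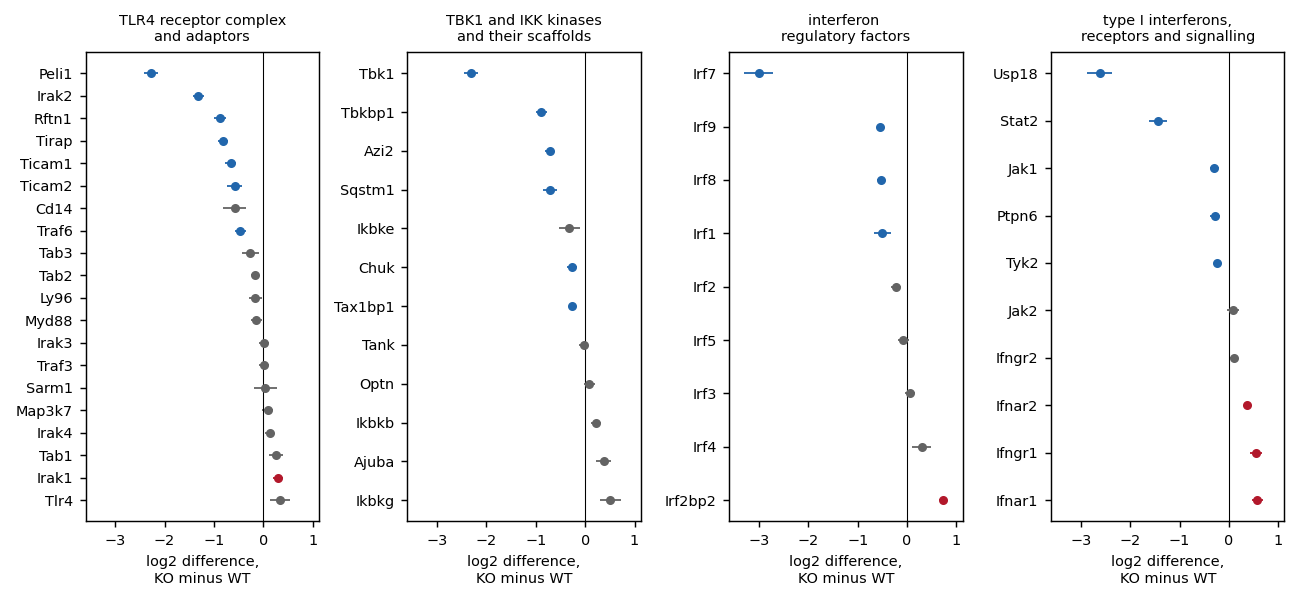
Log2 difference, KO minus WT, on the horizontal axis for tested members of 4 pathway lists, 1 list per panel; points are estimates, bars are ± SE, blue is called lower, red called higher and grey not called. Peli1, Tbk1, Irf7 and Usp18 lie lowest in their panels, and Tlr4, Irf3 and Tank lie close to 0 or above it with no call.

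Interferon-stimulated gene families were lower almost as a whole. The IFIT proteins, which bind foreign RNA, had 6 of 6 tested genes called lower, all without overlap between the groups (8.61% over all genes tested), and a median log2 difference of -3.41. Ifit1bl1 stood at 19.6, 1.33, 4.74, 1.64 and 1.44 TPM in KO and 275, 435, 329.9, 303 and 740.2 TPM in WT, a log2 difference of -6.45 ± 0.43 (adjusted p = 5.23e-15). It was the lowest difference of all genes tested. Ifit1 stood at 192, 53.6, 141, 73.5 and 64.7 TPM in KO and 525, 587, 565, 561 and 839 TPM in WT (log2 difference -2.69 ± 0.27), Ifit2 was lower with -4.19 ± 0.48, Ifit3 with -3.14 ± 0.40 and Ifit3b with -3.68 ± 0.40. The order of the KO libraries was alike in these genes, with library 1 highest, library 3 second and the other 3 well below. Rsad2, which encodes the antiviral enzyme viperin, stood at 115, 8.90, 35.7, 11.1 and 9.32 TPM in KO and 389.5, 1185, 619, 578 and 2066 TPM in WT, a log2 difference of -5.19 ± 0.51 (adjusted p = 1.21e-10). Its neighbour Cmpk2, a mitochondrial nucleotide kinase, stood at 92.8, 11.4, 36.3, 10.6 and 9.51 TPM in KO and 239.7, 622, 317, 325 and 1189 TPM in WT, a log2 difference of -4.35 ± 0.47 (adjusted p = 1.16e-09). WT libraries 2 and 5 were the highest of their group in both genes. The exonuclease Isg20 was lower with a log2 difference of -3.81 ± 0.37 and Ifi44 with -3.64 ± 0.30. In the list of the ISG15 system and antiviral effectors, 22 of 28 tested genes were lower and 3 higher (median log2 difference -1.45).

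The 3 exceptions in that list were Ifitm2, Ifi27 and Ifi30. Ifitm2, an antiviral membrane protein, stood at 1222, 889, 1187, 635 and 834 TPM in KO and 461, 539.9, 492, 385 and 264 TPM in WT, a log2 difference of 1.15 ± 0.19 (adjusted p = 6.25e-06). Ifi27 stood at 36.8, 148, 55.2, 146 and 157 TPM in KO and 23.4, 15.2, 23.8, 22.8 and 22.6 TPM in WT, a log2 difference of 2.08 ± 0.25 (adjusted p = 8.84e-09). Ifi30, the lysosomal thiol reductase of antigen processing, stood at 198, 181, 186, 210.5 and 215 TPM in KO and 63.0, 85.4, 62.2, 90.1 and 88.0 TPM in WT, a log2 difference of 1.35 ± 0.17 (adjusted p = 3.98e-08). All 3 genes had every KO library above every WT library, the reverse of their list. Ifitm3 (log2 difference -0.56 ± 0.39), Ifitm1 (0.87 ± 0.38) and the editing enzyme Apobec3 (-0.23 ± 0.15) were not called. Ifitm1 was called higher without KO library 4 (1.13) or WT library 1 (1.05) and Apobec3 lower without KO library 1 (-0.39).

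The OAS enzymes, which make a second messenger of antiviral defence, were lower as a family. All 8 tested OAS genes were called lower, Oasl1 most, at 41.0, 1.76, 15.9, 3.62 and 1.92 TPM in KO and 159, 325, 218, 240.2 and 378 TPM in WT, a log2 difference of -5.05 ± 0.40 (adjusted p = 4.89e-13). Oas3 was lower with a log2 difference of -4.07 ± 0.32, Oas2 with -1.65 ± 0.19 and Oas1a with -1.28 ± 0.18. Of 6 promoters at hand for this list, 4 held the ISRE letters.

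Guanylate-binding proteins, GTPases that attack the membranes of intracellular pathogens, were lower in 7 of 7 tested genes (median log2 difference -1.85). Gbp4 was the lowest at 3.88, 0.391, 2.79, 0.881 and 0.644 TPM in KO and 31.2, 42.4, 42.9, 39.9 and 82.7 TPM in WT, a log2 difference of -4.27 ± 0.27 (adjusted p = 7.64e-16). Gbp5 was lower with a log2 difference of -2.49 ± 0.23, Gbp3 with -2.35 ± 0.21 and Gbp7 with -1.46 ± 0.17. The related immunity GTPases were lower in 9 of 9 (median log2 difference -1.99), among them Tgtp2 (log2 difference -4.49 ± 0.32), Iigp1 (-4.37 ± 0.37), Mx1 (-3.32 ± 0.47) and Igtp (-1.79 ± 0.20). Promoters were at hand for 4 of the first family and 5 of the second, and all of them held the element, though near copies within these families are not independent. Schlafen genes, regulators of lymphoid and myeloid proliferation and of viral translation, were lower in 7 of 7 (median log2 difference -1.48). Slfn4 stood at 12.7, 0.708, 5.23, 1.70 and 1.17 TPM in KO and 161, 291, 183, 163 and 364 TPM in WT, a log2 difference of -5.84 ± 0.32 (adjusted p = 3.08e-17). Slfn1 was lower with a log2 difference of -5.16 ± 0.33, while Slfn2, the most abundant, was lower with -1.0 ± 0.15.

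**Figure D3:**
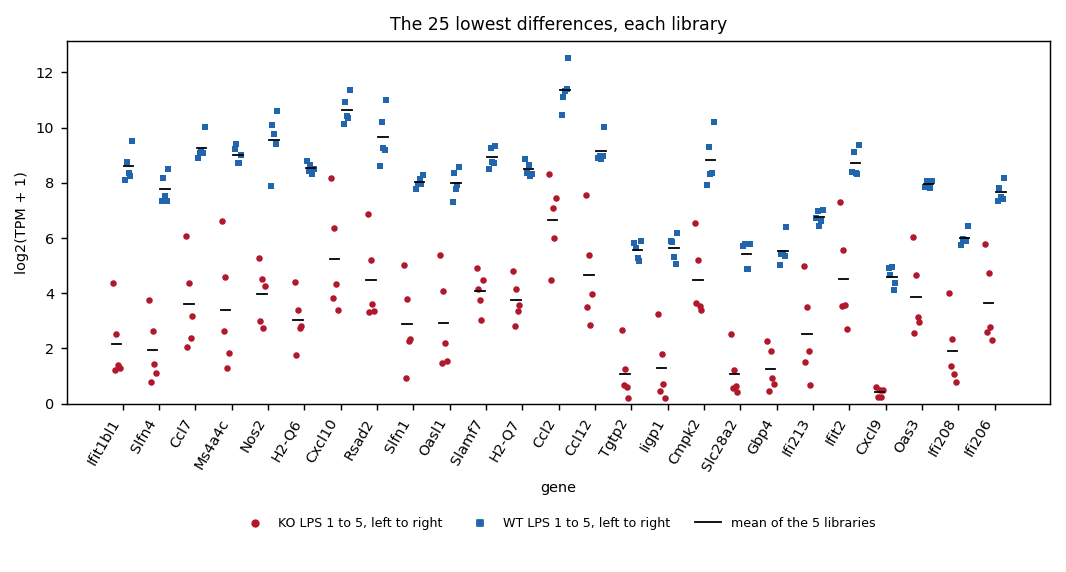
Log2(TPM + 1) on the vertical axis for the 25 genes with the lowest differences, each library a point (KO 1 to 5 red, WT 1 to 5 blue, in order from left to right) and the mean of each group a black bar. In most genes the first red point, KO library 1, is the highest of the KO values; that no red point reaches a blue one was required by the rule for these genes.

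Sensors of foreign nucleic acids were lower in 16 of 19 tested genes (median log2 difference -1.08). The largest losses of the list were in the Ifi200 genes, relatives of the DNA sensor IFI16. Ifi205 was lower with a log2 difference of -3.37 ± 0.35, Ifi209 with -2.88 ± 0.30 and Ifi204 with -1.82 ± 0.21. Ifi213, of the same gene family and outside the list, was among the 25 lowest genes at 30.7, 1.82, 10.3, 2.72 and 0.589 TPM in KO and 105, 124, 86.3, 96.5 and 129 TPM in WT, a log2 difference of -4.25 ± 0.39 (adjusted p = 2e-11). Stretches of 60 bases from 2 promoters of this family are printed because they are the same apart from position and strand. They lie upstream of the starts, and whether transcripts of these genes share reads was not tested. Capitals mark the ISRE letters.
Ifi213 (chr1:173599311-173599370, minus strand): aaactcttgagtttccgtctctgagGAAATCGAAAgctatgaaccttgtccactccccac
Ifi208 (chr1:173673582-173673641, plus strand): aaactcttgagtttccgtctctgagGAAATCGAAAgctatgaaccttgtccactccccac
Ifi208 was lower with a log2 difference of -4.07 ± 0.37, and a further gene of the family, Ifi206, with -4.01 ± 0.39. The RNA sensor MDA5, encoded by Ifih1, stood at 80.0, 43.5, 78.3, 56.7 and 58.4 TPM in KO and 167, 173, 180.0, 168 and 203 TPM in WT, a log2 difference of -1.51 ± 0.13 (adjusted p = 3.8e-12). The adaptors that receive these signals went the other way. Mavs, the mitochondrial adaptor of the RNA sensors, stood at 17.8, 19.6, 18.9, 15.3 and 19.6 TPM in KO and 11.1, 12.7, 10.3, 11.0 and 11.0 TPM in WT, a log2 difference of 0.65 ± 0.083 (adjusted p = 4.04e-08). Sting1, the adaptor of the DNA sensor cGAS, stood at 48.4, 49.6, 51.5, 43.5 and 33.2 TPM in KO and 30.3, 22.3, 27.8, 25.3 and 20.3 TPM in WT, a log2 difference of 0.82 ± 0.15 (adjusted p = 4.33e-05). Cgas itself was not called (log2 difference -0.17 ± 0.14). Toll-like receptors were called in both directions: Tlr3, which reads double-stranded RNA, was lower with -1.11 ± 0.16 and Tlr7, which reads single-stranded RNA, with -0.80 ± 0.12, while Tlr2, the receptor for lipopeptides, stood at 228, 339.9, 308, 352 and 309.6 TPM in KO and 116, 114, 104, 145 and 96.4 TPM in WT, a log2 difference of 1.41 ± 0.16 (adjusted p = 5.28e-09), and Tlr8 was higher with 0.93 ± 0.15. Over the 12 tested Toll-like receptors and cofactors, 4 were lower and 2 higher, against 13.2% and 14.4% of all genes tested, so the higher count was close to the background, and without KO library 1 the higher members were 4.

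Interferon-induced PARP and TRIM genes were lower in 18 of 20 (median log2 difference -0.90), led by Trim30c (log2 difference -3.01 ± 0.27) and Trim30b (-2.78 ± 0.21), with Trim25, the ligase that activates RIG-I, at -1.09 ± 0.11. Trim12c (log2 difference -0.045 ± 0.089) and Trim5 (0.21 ± 0.13) were not called. In the MS4A family of membrane proteins, 7 of 8 were lower (median log2 difference -1.15). Ms4a4c stood at 97.3, 5.25, 23.2, 1.47 and 2.56 TPM in KO and 599, 671, 425, 419 and 518 TPM in WT, a log2 difference of -5.62 ± 0.54 (adjusted p = 7.09e-11). Ms4a7 was lower with a log2 difference of -1.15 ± 0.17 and Ms4a6d with -0.66 ± 0.077, and Ms4a4a was not called (-0.26 ± 0.25).

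Antigen presentation was lower on the class I side. Of 16 tested class I genes, 14 were lower, all without overlap, and 2 higher (median log2 difference -1.53). H2-Q7 (chromosome 17, 35439140 to 35443773) stood at 26.8, 6.02, 16.8, 9.35 and 11.0 TPM in KO and 470.3, 325, 405, 306 and 317 TPM in WT, a log2 difference of -4.75 ± 0.24 (adjusted p = 4.1e-18). H2-Q6, a near-identical neighbour with which it can share reads, was lower with a log2 difference of -5.52 ± 0.26, H2-Q4 with -2.66 ± 0.16 and H2-T22 with -2.07 ± 0.14. The exception was the nonclassical gene H2-M2, at 285, 479, 298, 704 and 712 TPM in KO and 33.3, 171, 75.3, 156 and 145 TPM in WT, a log2 difference of 2.19 ± 0.36 (adjusted p = 5.57e-06), with every KO library above every WT library. Mr1, which presents vitamin metabolites, was the other member called higher (log2 difference 0.49 ± 0.15), and it lost the call without WT library 3 (0.40). Of 13 genes of peptide loading, transport and trimming for class I, 10 were lower and 2 higher. Tap1, a chain of the peptide transporter, stood at 129.6, 43.2, 78.5, 46.1 and 47.0 TPM in KO and 233, 264, 240.5, 213 and 239.8 TPM in WT, a log2 difference of -1.91 ± 0.17 (adjusted p = 1.79e-11). The immunoproteasome subunits Psmb9 and Psmb8 were lower with -1.06 ± 0.18 and -0.94 ± 0.13. Class II genes leaned the other way, with 6 of 11 higher and 1 lower (median log2 difference 0.67). The invariant chain Cd74 stood at 34.2, 54.4, 53.2, 72.9 and 116 TPM in KO and 17.7, 30.4, 34.7, 26.6 and 32.9 TPM in WT, a log2 difference of 1.11 ± 0.28 (adjusted p = 0.00208). The peptide exchange genes H2-DMa (log2 difference 0.67 ± 0.17) and H2-DMb1 (0.68 ± 0.16) were higher, and H2-Aa, at 1.11 ± 1.84 TPM in KO and 0.664 ± 0.598 TPM in WT, was not called.

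Costimulatory ligands were lower in 7 of 13 genes and higher in 3 (median log2 difference -0.51). Cd40, the receptor for help from T cells, stood at 33.5, 23.1, 23.2, 26.0 and 43.0 TPM in KO and 66.2, 109, 84.4, 65.1 and 121 TPM in WT, a log2 difference of -1.55 ± 0.31 (adjusted p = 0.000103). Cd274, the checkpoint ligand PD-L1, stood at 115, 104, 136, 179 and 177 TPM in KO and 245, 381, 357, 325 and 479 TPM in WT, a log2 difference of -1.32 ± 0.16 (adjusted p = 2.32e-08). Cd86 was lower with a log2 difference of -1.27 ± 0.16, Pvr with -1.36 ± 0.14 and Tnfsf9 with -1.13 ± 0.21. In these 5 genes no KO value reached a WT value. Icosl was called higher with a log2 difference of 0.89 ± 0.19. The higher members of this list were 1 without KO library 2 or 3 or WT library 4 or 5, and 1 with only the compared groups in the fit. The surface receptor Slamf7 was among the 25 lowest genes, at 29.4, 16.8, 12.6, 7.22 and 21.5 TPM in KO and 363, 616, 429, 420.4 and 653 TPM in WT, a log2 difference of -4.85 ± 0.33 (adjusted p = 9.68e-15).

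CC chemokines that attract monocytes were lower, while CXC chemokines that recruit neutrophils were higher or not called. Ccl7 stood at 65.8, 3.12, 19.8, 4.26 and 8.12 TPM in KO and 479.6, 543, 574, 539 and 1051 TPM in WT, a log2 difference of -5.64 ± 0.46 (adjusted p = 1.01e-12). Ccl2, the main attractant of monocytes, stood at 319, 21.4, 134, 63.2 and 173 TPM in KO and 1421, 2203, 2574, 2702 and 5933 TPM in WT, a log2 difference of -4.70 ± 0.46 (adjusted p = 1.1e-10). Ccl12 was lower with a log2 difference of -4.49 ± 0.55, Ccl5 with -3.36 ± 0.43, Ccl4 with -2.94 ± 0.32 and Ccl3 with -2.02 ± 0.28. Ccl5 remained abundant, with 1437 ± 878 TPM in KO and 13021 ± 1814 TPM in WT. All of these were separated between the groups without overlap, as the rule required of Ccl7, Ccl2 and Ccl12, and the lowest value was that of KO library 2 or KO library 4 in each. Of 14 tested CC chemokines 7 were lower and 3 higher (median log2 difference -1.07), among the latter Ccl24, an attractant of eosinophils (log2 difference 1.54 ± 0.31). Ccl9 (log2 difference 0.20 ± 0.33) and Ccl6 (-0.31 ± 0.31) were not called.

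Among the CXC chemokines, the 3 ligands of CXCR3 were the lower members. Cxcl10 stood at 292, 13.4, 82.0, 19.2 and 9.58 TPM in KO and 1128, 1943, 1383, 1307 and 2618 TPM in WT, a log2 difference of -5.41 ± 0.53 (adjusted p = 1.05e-10). Cxcl9 stood at 0.526, 0.182, 0.404, 0.191 and 0.397 TPM in KO and 28.8, 24.1, 30.2, 16.2 and 19.9 TPM in WT, a log2 difference of -4.19 ± 0.19 (adjusted p = 2.48e-19). Cxcl11 was lower with a log2 difference of -4.07 ± 0.36. The neutrophil attractants Cxcl1 (278 ± 185 TPM in KO and 337 ± 203 TPM in WT, log2 difference -0.22 ± 0.41), Cxcl2 (-0.76 ± 0.39) and Cxcl3 (0.74 ± 0.42) were not called, and in each of them KO libraries 4 and 5 were the highest of the KO group. Cxcl2 was called lower without KO library 5 (-1.06) or WT library 1 (-1.10) and Cxcl3 higher without KO library 1 (1.08). The platelet chemokine Pf4, also one of the border macrophage markers above, stood at 1059, 762, 1301, 1083 and 823 TPM in KO and 93.8, 117, 197, 195 and 84.1 TPM in WT, a log2 difference of 2.93 ± 0.33 (adjusted p = 3.77e-09). Ppbp, its neighbour in the cluster, was higher with a log2 difference of 2.76 ± 0.17, Cxcl14 with 1.05 ± 0.17 and Cxcl5 with 1.53 ± 0.26. In this list 6 of 13 were higher and 3 lower (median log2 difference 0.26). Receptors of chemoattractants were called in both directions, 3 of 16 higher and 6 lower, against 14.4% and 13.2% of all genes tested. The higher count was thus close to the background. The decoy-like receptor Ccrl2 was lower with a log2 difference of -2.22 ± 0.23 and the complement receptor C3ar1 with -1.65 ± 0.13. Ptafr, the receptor of platelet-activating factor, was higher with 1.37 ± 0.19 and Cmklr1 with 0.82 ± 0.12.

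Genes of the IL-1 family and the inflammasome were called in both directions. Il1b, one of the most abundant transcripts of the cultures, stood at 6629, 5703, 7333, 11281 and 13397 TPM in KO and 7961, 12169, 14271, 15610.3 and 18279.9 TPM in WT and was not called (log2 difference -0.65 ± 0.57, adjusted p = 0.475). Il1a, its relative, stood at 969, 787, 1358, 3568 and 4543 TPM in KO and 3859.8, 5969, 8597, 10063 and 12449 TPM in WT, a log2 difference of -2.11 ± 0.35 (adjusted p = 8.35e-06). Il1rn, the receptor antagonist, stood at 292, 208, 278, 381 and 367 TPM in KO and 1450.1, 1444, 1627, 1451 and 2347 TPM in WT, a log2 difference of -2.45 ± 0.31 (adjusted p = 5.29e-08). Il1rn values were far apart in the groups, while for Il1a KO library 5 lay within the WT range and for Il1b KO libraries 4 and 5 did. Il18 was lower with a log2 difference of -1.37 ± 0.23 and its binding protein Il18bp with -2.12 ± 0.25. Casp4, the caspase that senses cytosolic LPS, was lower with a log2 difference of -1.44 ± 0.20, while the inflammasome adaptor Pycard was higher with 1.27 ± 0.25 and Nlrc4 with 0.87 ± 0.15. In all, 8 of 17 were lower and 5 higher (median log2 difference -0.65).

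Of the IL-6, IL-10 and IL-12 families, 8 of 11 genes were lower (median log2 difference -1.64). Il27 stood at 3.60, 0.569, 1.36, 1.05 and 1.20 TPM in KO and 28.7, 33.4, 40.8, 30.9 and 40.2 TPM in WT, a log2 difference of -3.89 ± 0.21 (adjusted p = 1.71e-17). Its partner subunit Ebi3 stood at 155, 119.7, 116, 92.9 and 130.2 TPM in KO and 107, 106, 123, 85.0 and 109 TPM in WT and was not called (log2 difference 0.20 ± 0.15). Il10, the anti-inflammatory cytokine, stood at 7.16, 0.751, 2.66, 0.928 and 0.606 TPM in KO and 29.7, 22.2, 24.6, 15.4 and 21.4 TPM in WT, a log2 difference of -3.07 ± 0.26 (adjusted p = 2.83e-12). Il12b stood at 1.97, 6.06, 3.16, 7.70 and 17.1 TPM in KO and 14.3, 70.4, 49.4, 51.9 and 117 TPM in WT, a log2 difference of -2.92 ± 0.34 (adjusted p = 7.26e-09), with KO library 5 inside the WT range. Il19 was lower with a log2 difference of -3.85 ± 0.20 and Lif with -1.64 ± 0.27. Il6 stood at 245, 312, 437, 988 and 1653 TPM in KO and 929.8, 1567, 2297, 1930.5 and 3159 TPM in WT, a log2 difference of -1.71 ± 0.35 (adjusted p = 0.000189), with KO libraries 4 and 5 inside the WT range. The calls of the 2 higher genes depended on the libraries used. Il12a (log2 difference 0.83 ± 0.26) lost the call without KO library 5 (0.48), without WT library 1 (0.69) and with only the compared groups in the fit. Il23a (log2 difference 0.59 ± 0.23) lost it in 12 of 16 alternative analyses, among them those without KO library 4 (0.36), KO library 5 (0.30) or any 1 of the WT libraries (0.51 to 0.62). Il15 was lower with a log2 difference of -2.89 ± 0.32 and its presenting receptor Il15ra with -1.94 ± 0.27. Csf3, a growth factor of granulocytes, was lower with a log2 difference of -2.12 ± 0.25. Receptors of other colony-stimulating factors were higher, Csf2rb2 with 175 ± 50.7 TPM in KO and 53.5 ± 9.83 TPM in WT (log2 difference 1.65 ± 0.17), Csf2ra with 0.72 ± 0.15 and Csf1r with 0.87 ± 0.11.

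In the TNF superfamily 8 of 18 genes were lower and 3 higher, against 13.2% and 14.4% of all genes tested (median log2 difference -0.34). The higher count was thus close to the background. Tnf stood at 276, 168, 169, 318 and 495 TPM in KO and 689, 680.4, 797, 898 and 1133 TPM in WT, a log2 difference of -1.65 ± 0.23 (adjusted p = 2.45e-07), with no overlap. Tnfsf15 was lower with a log2 difference of -1.76 ± 0.34, Tnfsf10 (TRAIL) with -1.54 ± 0.23 and the receptor Tnfrsf1b with -0.85 ± 0.11. The other TNF receptor, Tnfrsf1a, had 137 ± 16.3 TPM in KO and 143 ± 10.3 TPM in WT and was not called (log2 difference -0.06 ± 0.065), as was Fas (-0.14 ± 0.19).

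Several feedback inhibitors of NF-kB were lower. Of 22 tested genes 11 were lower (median log2 difference -0.30). Tnfaip3, which encodes the deubiquitinating enzyme A20, stood at 61.0, 78.9, 74.4, 97.0 and 112 TPM in KO and 217, 192, 224, 201 and 199 TPM in WT, a log2 difference of -1.31 ± 0.15 (adjusted p = 2.3e-09). Nfkbib, an inhibitory IkB protein, stood at 95.0, 71.9, 67.0, 70.8 and 94.6 TPM in KO and 152, 177, 169, 165 and 168 TPM in WT, a log2 difference of -1.06 ± 0.11 (adjusted p = 3.75e-10). Nfkbiz, the nuclear IkB protein that drives Il6 and related genes, was lower with a log2 difference of -1.09 ± 0.11, Otud1 with -1.35 ± 0.13 and the subunit Rel with -0.78 ± 0.11. Nfkb1 (log2 difference -0.11 ± 0.095), Nfkb2 (0.097 ± 0.13) and the inhibitor of apoptosis Birc3 (0.0077 ± 0.14) were not called, and Nfkbie was higher with 0.83 ± 0.14. A form of the NF-kB site, GGGA followed after 4 bases by CC, stood in 10 of 19 promoters of this list and in 2821 of 10787 of all genes tested (26.2%). It stood in 92 of 336 promoters of genes lower by at least 1 on the log2 scale (27.4%) and in 77 of 289 of genes higher by at least 1 (26.6%).

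Immediate early genes and MAP kinase phosphatases were lower in 20 of 31 and higher in 3 (median log2 difference -0.50). Dusp1, the phosphatase that ends p38 signalling, stood at 27.7, 13.7, 15.8, 17.5 and 16.5 TPM in KO and 68.7, 108, 89.1, 65.5 and 118 TPM in WT, a log2 difference of -2.24 ± 0.24 (adjusted p = 1.41e-09). Zfp36, which destabilizes cytokine messages, stood at 52.9, 25.7, 34.2, 26.1 and 31.2 TPM in KO and 111, 130.1, 122, 88.6 and 145 TPM in WT, a log2 difference of -1.81 ± 0.19 (adjusted p = 6.18e-10). Dusp2 was lower with a log2 difference of -2.62 ± 0.30, Klf6 with -1.62 ± 0.13, Ier3 with -1.43 ± 0.23 and Atf3 with -1.39 ± 0.27. Members of the Egr family went in opposite directions: Egr1 was lower with -1.44 ± 0.20, and Egr2 stood at 2.55, 9.89, 5.57, 25.1 and 22.1 TPM in KO and 1.44, 0.676, 0.951, 0.823 and 1.17 TPM in WT, a log2 difference of 2.45 ± 0.34 (adjusted p = 2.22e-07), with KO libraries 4 and 5 highest. Fos (log2 difference -0.42 ± 0.31) and Myc (-0.31 ± 0.28) were not called. Of the STAT and SOCS genes, Socs3, the brake on IL-6 receptor signalling, was lower with a log2 difference of -0.79 ± 0.16 and Stat5a higher with 0.79 ± 0.15. In that list 6 of 15 were lower and 3 higher, against 13.2% and 14.4% of all genes tested. Without KO library 5 the lower members were 3.

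In the list of arginine, nitric oxide, itaconate and tryptophan enzymes 7 of 18 were lower and 4 higher (median log2 difference -0.36), and the higher members were 6 without KO library 1, 2 without KO library 2, 4 or 5 or WT library 1, and 1 with only the compared groups in the fit. Nos2, the inducible nitric oxide synthase, stood at 37.7, 7.03, 22.1, 5.71 and 18.3 TPM in KO and 238, 1107, 883, 674 and 1555 TPM in WT, a log2 difference of -5.60 ± 0.40 (adjusted p = 4.67e-14). Ptgs2, the inducible cyclooxygenase of the eicosanoid pathway, stood at 123, 106, 193, 229.6 and 429.7 TPM in KO and 934, 1753, 2245, 1366 and 3083 TPM in WT, a log2 difference of -3.18 ± 0.36 (adjusted p = 3.33e-09). Arg1, which competes with Nos2 for arginine, stood at 12.4, 8.27, 32.6, 18.4 and 27.4 TPM in KO and 20.6, 89.3, 80.4, 82.8 and 114 TPM in WT, a log2 difference of -1.88 ± 0.35 (adjusted p = 4.73e-05). Ptgs2 did not overlap between the groups, while KO libraries 3 and 5 overlapped WT library 1 in Arg1. Gch1, which makes the cofactor of nitric oxide synthase, was lower with a log2 difference of -0.51 ± 0.12, and Spr, a later step of the same cofactor pathway, was higher with 0.50 ± 0.11. Acod1, which makes itaconate, was lower, with 1302 ± 274 TPM in KO and 3001 ± 705 TPM in WT (log2 difference -1.20 ± 0.32), but was not called with a pseudocount of 0.1.

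Other genes of the eicosanoid pathway went in both directions, with 10 of 18 called higher and 6 lower (median log2 difference 0.47). Ptgs1, the constitutive cyclooxygenase, stood at 7.25, 25.4, 19.9, 14.3 and 11.6 TPM in KO and 2.28, 3.68, 2.56, 3.08 and 1.14 TPM in WT, a log2 difference of 2.17 ± 0.31 (adjusted p = 4.32e-07). The prostaglandin E2 receptor Ptger4 stood at 15.9, 14.5, 21.1, 18.3 and 12.7 TPM in KO and 5.13, 2.33, 2.48, 2.46 and 2.04 TPM in WT, a log2 difference of 2.20 ± 0.20 (adjusted p = 1.99e-11). Alox5ap, which feeds the leukotriene enzyme, stood at 64.1, 136, 73.9, 110.3 and 103 TPM in KO and 4.84, 34.9, 22.9, 32.2 and 33.1 TPM in WT, a log2 difference of 2.08 ± 0.39 (adjusted p = 4.78e-05). In these 3 genes all KO libraries were above all WT libraries. Alox5 was higher with a log2 difference of 1.73 ± 0.27 and Pla2g7 with 1.46 ± 0.34. The receptor Ptger2 was lower with a log2 difference of -1.29 ± 0.17 and the prostaglandin D2 synthase Hpgds with -1.38 ± 0.13.

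Matrix proteases were called in both directions as well. Mmp13, a collagenase, stood at 662, 123, 550.3, 267 and 468 TPM in KO and 5914, 4007, 7272, 5627 and 4487 TPM in WT, a log2 difference of -3.91 ± 0.31 (adjusted p = 4.89e-13). Mmp9, a gelatinase, stood at 569, 363, 669, 639 and 506 TPM in KO and 115, 44.8, 86.8, 101 and 25.3 TPM in WT, a log2 difference of 3.03 ± 0.41 (adjusted p = 1.5e-07). On the TPM scale Mmp9 was thus the more abundant of the 2 proteases in 4 of 5 KO libraries, KO library 1 excepted, and Mmp13 was in all 5 WT libraries. Mmp19 was higher with a log2 difference of 1.20 ± 0.13, Mmp10 lower with -1.35 ± 0.29 and Mmp8 not called (0.31 ± 0.31). Fn1, fibronectin, stood at 211, 370.3, 222, 417 and 228 TPM in KO and 11.1, 33.6, 15.1, 38.2 and 22.8 TPM in WT, a log2 difference of 3.61 ± 0.31 (adjusted p = 6.96e-12). The secreted phosphoprotein Spp1 (osteopontin) was lower with a log2 difference of -1.47 ± 0.31, and the membrane proteoglycan Sdc1 was higher with 1.76 ± 0.24. Over 28 tested genes the calls were 8 higher and 7 lower, against 14.4% and 13.2% of all genes tested (median log2 difference -0.0093).

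The highest differences were those of Hp and Itgax. Hp, the haemoglobin-binding protein haptoglobin (chromosome 8), stood at 145, 220.5, 137, 141 and 80.1 TPM in KO and 7.30, 8.43, 3.52, 10.8 and 3.08 TPM in WT, a log2 difference of 4.30 ± 0.33 (adjusted p = 2.38e-13). Itgax, which encodes CD11c (chromosome 7, 128129526 to 128150657), stood at 29.7, 107, 58.3, 257 and 233 TPM in KO and 2.27, 5.03, 3.66, 6.99 and 8.30 TPM in WT, a log2 difference of 4.14 ± 0.41 (adjusted p = 2.05e-10). Susd2, a membrane protein with sushi domains, stood at 18.2, 54.1, 32.5, 90.1 and 45.0 TPM in KO and 1.33, 2.23, 1.81, 3.31 and 1.65 TPM in WT, a log2 difference of 3.85 ± 0.22 (adjusted p = 1.27e-16). That the groups of these 3 do not overlap is a condition of the rule that named them. For Itgax the KO libraries themselves spread widely, with libraries 4 and 5 highest and library 1 lowest. Acp5, an acid phosphatase of osteoclasts and macrophages, was higher with a log2 difference of 3.55 ± 0.28, the purine enzyme Gda with 3.53 ± 0.28, the antimicrobial peptide gene Wfdc21 with 2.86 ± 0.27, the coagulation factor gene F10 with 2.83 ± 0.30 and Dcstamp, needed for cell fusion, with 2.97 ± 0.40. Ly6c2, a marker of inflammatory monocytes, was higher with a log2 difference of 3.23 ± 0.26, with KO libraries 4 and 5 lowest of the KO group at 10.8 and 4.10 TPM; Ccr2, another such marker, was at 0 to 0.309 TPM in KO.

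**Figure D4:**
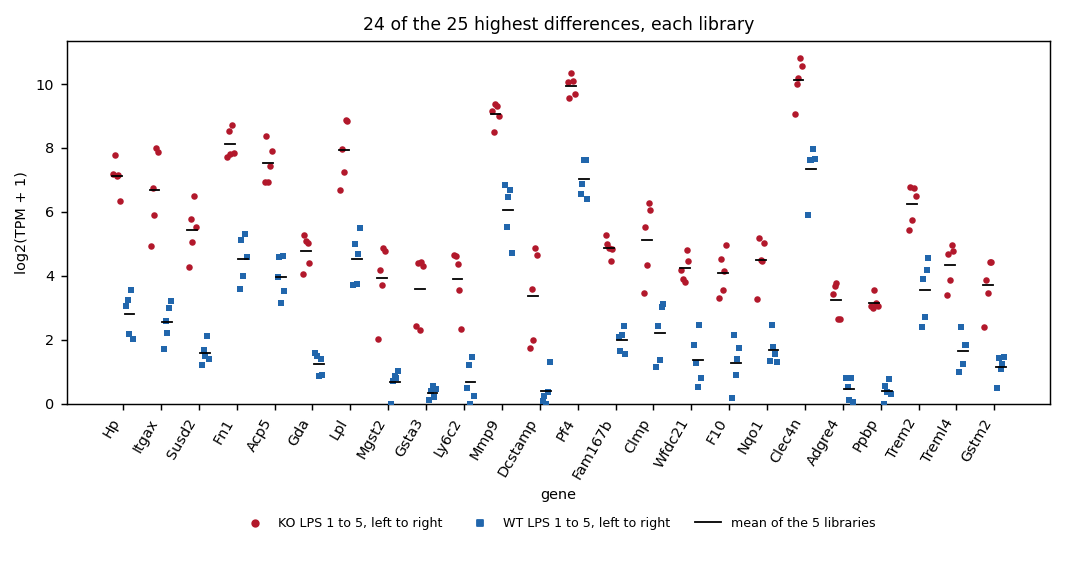
Log2(TPM + 1) on the vertical axis for 24 of the 25 genes with the highest differences, each library a point (KO 1 to 5 red, WT 1 to 5 blue, in order from left to right) and the mean of each group a black bar. Every red point lies above every blue point of the same gene, as the rule for these genes required, and Itgax, Lpl and Clmp show the wide spread among KO libraries.

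Several genes of unstimulated microglia were higher in KO. Of 23 homeostatic genes 10 were called higher and the other 13 were not called (median log2 difference 0.29). Tmem119, a microglial surface marker, stood at 11.5, 19.6, 14.8, 15.5 and 10.3 TPM in KO and 1.59, 2.26, 1.54, 3.43 and 1.77 TPM in WT, a log2 difference of 2.30 ± 0.19 (adjusted p = 9.97e-13). Csf1r, the receptor that keeps microglia alive, stood at 694, 1057, 991, 841 and 693 TPM in KO and 454, 558, 430.0, 510.5 and 375 TPM in WT, a log2 difference of 0.87 ± 0.11 (adjusted p = 7.46e-08). The purinergic receptors P2ry13 and P2ry12 were higher with a log2 difference of 1.41 ± 0.19 and 1.22 ± 0.22, Olfml3 with 1.31 ± 0.21 and the factor Mef2c with 0.59 ± 0.11. Both P2ry12 and Olfml3 were higher in KO libraries 1 to 3 than in 4 and 5. Cst3 (log2 difference -0.0066 ± 0.079) was not called. Without LPS, Tmem119 had 13.3 ± 3.88 TPM in KO and 14.6 ± 1.97 TPM in WT, Csf1r 1180.4 ± 68.0 and 1228 ± 136 TPM, and Olfml3 190.1 ± 31.9 and 173 ± 7.52 TPM. With LPS, Tmem119 in KO was thus near its untreated level, while Olfml3 was below it in both genotypes.

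Among 27 lineage and activation factors 9 were higher and 6 lower, against 14.4% and 13.2% of all genes tested (median log2 difference 0.17). Tfec, of the family that governs lysosomal genes, stood at 26.6, 38.0, 50.7, 91.2 and 85.3 TPM in KO and 10.4, 14.1, 21.0, 26.8 and 25.7 TPM in WT, a log2 difference of 1.46 ± 0.26 (adjusted p = 2.71e-05). Cebpa stood at 21.6, 33.9, 25.4, 27.0 and 27.6 TPM in KO and 10.8, 13.5, 12.2, 12.2 and 10.6 TPM in WT, a log2 difference of 1.12 ± 0.11 (adjusted p = 1.5e-10). Cebpa was above WT without overlap, while Tfec of KO library 1 lay within the WT range. Tfeb was higher with a log2 difference of 0.90 ± 0.13. Batf2 was lower with a log2 difference of -1.83 ± 0.27, and the pioneer factor Spi1 (PU.1, -0.25 ± 0.10) and Cebpb (-0.036 ± 0.11) were not called, though Spi1 was called lower without KO library 1 (-0.35) or WT library 5 (-0.33).

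Genes that mark microglia around amyloid and dying cells had 10 of 34 members higher and 9 lower, against 14.4% and 13.2% of all genes tested. With only the compared groups in the fit, 5 were lower. The median log2 difference of the list was 0.061, and it was negative without KO library 2 or KO library 5. Trem2, the lipid receptor at the centre of that state (chromosome 17), stood at 42.0, 109.9, 52.2, 108 and 88.6 TPM in KO and 4.30, 13.9, 5.50, 17.0 and 22.5 TPM in WT, a log2 difference of 2.70 ± 0.25 (adjusted p = 4.1e-11). Lpl, lipoprotein lipase, stood at 103, 250.2, 151, 468 and 458 TPM in KO and 12.1, 30.6, 12.3, 24.4 and 43.7 TPM in WT, a log2 difference of 3.41 ± 0.31 (adjusted p = 2.52e-11). Tyrobp, the signalling partner of Trem2, was higher with a log2 difference of 0.53 ± 0.08 and the lysosomal lipase Lipa with 0.81 ± 0.13. Others of the set were lower: Ch25h, which makes 25-hydroxycholesterol, stood at 472, 199.8, 211, 274 and 357 TPM in KO and 1394, 1167, 1371, 1315 and 1421 TPM in WT, a log2 difference of -2.21 ± 0.27 (adjusted p = 1.75e-08), the receptor Axl was lower with -1.08 ± 0.30 and the lipid droplet protein Plin2 with -1.20 ± 0.14. Of paired immune receptors, Cd200r1, the receptor of an inhibitory neuronal ligand, stood at 15.3, 32.4, 23.2, 45.4 and 35.8 TPM in KO and 5.21, 7.68, 5.76, 6.76 and 8.11 TPM in WT, a log2 difference of 1.95 ± 0.24 (adjusted p = 2.54e-08). Treml4 was higher with a log2 difference of 2.67 ± 0.23, Cd300lb with 1.79 ± 0.20 and Clec5a with 1.03 ± 0.24, whereas Siglec1 was lower with -1.72 ± 0.23, Slamf9 with -2.07 ± 0.27 and Trem1 with -1.33 ± 0.18. In this list of 28 the counts were 10 higher and 9 lower.

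Several receptors for uptake were higher. C-type lectins had 6 of 14 higher and 8 not called (median log2 difference 0.49). Clec4n, which encodes dectin-2, stood at 537, 1035, 1158, 1801 and 1529 TPM in KO and 58.3, 194, 194, 247 and 199 TPM in WT, a log2 difference of 2.79 ± 0.38 (adjusted p = 1.8e-07). Cd302 stood at 209, 254, 208, 256 and 250.5 TPM in KO and 62.6, 83.9, 63.0, 103 and 72.6 TPM in WT, a log2 difference of 1.62 ± 0.15 (adjusted p = 1.52e-11). Clec4a3 was higher with a log2 difference of 1.67 ± 0.27 and Clec4a2 with 1.48 ± 0.26. Marco, a scavenger receptor for bacteria, stood at 3896, 3535, 2555, 2739.8 and 3096 TPM in KO and 439.5, 723, 428, 624 and 488 TPM in WT, a log2 difference of 2.56 ± 0.33 (adjusted p = 5.29e-08). No WT library came near its KO range. Olr1, the receptor of oxidized lipoprotein, was higher with a log2 difference of 2.21 ± 0.28 and Mertk, which clears dying cells, with 0.84 ± 0.13. Of 15 scavenger receptors 7 were called higher and 2 lower. Without KO library 2 the higher members were 4, and with only the compared groups in the fit they were 3. Fc receptors diverged by type: Fcgr3 stood at 479, 468, 583, 569 and 578 TPM in KO and 205, 290.3, 325, 338 and 363 TPM in WT, a log2 difference of 0.83 ± 0.11 (adjusted p = 3.57e-08), while Fcgr1 was lower with -1.65 ± 0.22 and Fcgr4 stood at 186, 17.9, 54.4, 10.9 and 9.01 TPM in KO and 234, 213, 175, 186 and 161 TPM in WT, a log2 difference of -2.70 ± 0.39 (adjusted p = 6.64e-07). In Fcgr4 KO library 1 alone was inside the WT range. Their shared signalling chain Fcer1g (log2 difference 0.11 ± 0.11) and the inhibitory Fcgr2b (-0.20 ± 0.15) were not called.

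In the complement list 7 of 17 were higher and 5 lower, against 14.4% and 13.2% of all genes tested (median log2 difference 0.044). C1ra was higher with a log2 difference of 0.79 ± 0.20 and Itgb2, the shared chain of complement receptors, with 0.93 ± 0.16, while C2 was lower with -1.17 ± 0.19 and C5ar1 with -0.72 ± 0.16. C1qa (1066 ± 658 TPM in KO and 669 ± 102 TPM in WT) and C1qb (log2 difference -0.32 ± 0.21) were not called and had their lowest values in KO libraries 4 and 5. Without either of these 2 libraries C1qa was called higher (0.70 without KO library 4, 0.68 without KO library 5), and without KO library 1 C1qb was called lower (-0.62). Integrin genes were called in both directions, 7 of 21 higher and 6 lower, against 14.4% and 13.2% of all genes tested. Itga6 was higher with a log2 difference of 1.05 ± 0.088, Itgb5 with 0.92 ± 0.11 and Itga4 with 1.00 ± 0.18. Itga9 was lower with -1.72 ± 0.23, Itga5 with -0.87 ± 0.15 and Itgal with -0.78 ± 0.19. Itgam (log2 difference 0.044 ± 0.13) was not called.

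Antioxidant genes under the factor NRF2 were higher in 16 of 24, with the other 8 not called (median log2 difference 0.59). Prdx6, a peroxidase of oxidized lipids, stood at 176, 648, 324, 975 and 846 TPM in KO and 89.4, 109, 92.0, 97.6 and 120.1 TPM in WT, a log2 difference of 2.29 ± 0.25 (adjusted p = 1.42e-09). Gclm, a subunit of the rate-limiting enzyme of glutathione synthesis, stood at 143, 357, 219, 615 and 499 TPM in KO and 58.1, 135, 89.9, 104 and 149.7 TPM in WT, a log2 difference of 1.65 ± 0.28 (adjusted p = 9.15e-06). Nqo1, a quinone reductase, stood at 8.78, 35.0, 21.4, 21.2 and 31.8 TPM in KO and 1.53, 4.54, 2.40, 1.91 and 1.48 TPM in WT, a log2 difference of 2.80 ± 0.33 (adjusted p = 8.34e-09). In each of them KO library 1 was the lowest of its group, and for Gclm it lay within the WT range. Cat (catalase) was higher with a log2 difference of 1.55 ± 0.20, Mgst1 with 1.40 ± 0.15 and Gsta3 with 3.23 ± 0.25. Heme oxygenase Hmox1 (2058 ± 679 TPM in KO and 1640.1 ± 1100.4 TPM in WT, log2 difference 0.60 ± 0.35) and the cystine carrier Slc7a11 (282 ± 163 TPM in KO and 163 ± 49.8 TPM in WT, 0.58 ± 0.29) were not called. Hmox1 was called higher without WT library 5 (0.92) and Slc7a11 without KO library 1 (1.02). Stretches of 2 promoters are printed because these genes were among the higher members of the list; capitals mark TGACNNNGC, the core of the antioxidant response element, on either strand.
Gclm (chr3:122245397-122245456, plus strand): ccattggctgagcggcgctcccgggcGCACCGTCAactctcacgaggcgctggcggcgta
Mgst1 (chr6:138140445-138140504, plus strand): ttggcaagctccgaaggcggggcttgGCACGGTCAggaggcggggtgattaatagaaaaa
These letters stood in 7 of 20 promoters of the list and in 1491 of 10787 of all genes tested (13.8%). They stood in 43 of 289 promoters of genes higher by at least 1 on the log2 scale (14.9%) and in 49 of 336 of genes lower by at least 1 (14.6%).

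Bactericidal proteins of the phagosome were higher as well. Lyz2, lysozyme, stood at 30723, 31949, 28679.7, 23352 and 26568 TPM in KO and 7324, 10347, 7822, 11492 and 9562 TPM in WT, a log2 difference of 1.61 ± 0.19 (adjusted p = 1.21e-08). Its neighbour and near copy Lyz1 was higher with a log2 difference of 1.65 ± 0.26. The NADPH oxidase chains Cybb and Cyba were higher with a log2 difference of 0.56 ± 0.13 and 0.71 ± 0.10, and the cathelicidin gene Camp with 1.40 ± 0.16. The receptors of bacterial cell wall fragments, Nod1 (log2 difference -1.20 ± 0.15) and Nod2 (-0.66 ± 0.11), and their kinase Ripk2 (-1.18 ± 0.13) were lower. Of 13 tested genes 7 were higher and 4 lower. In the list of iron handling and acute phase genes 8 of 21 were higher, or 5 with only the compared groups in the fit (median log2 difference 0.42), and its most abundant transcript, Saa3, stood at 99246, 70098, 80057, 36262 and 48954 TPM in KO and 64038, 49586, 54736, 44581 and 30116 TPM in WT and was not called (log2 difference 0.42 ± 0.44). The S100 and annexin list had 8 of 15 higher, or 5 with median-of-ratios scaling, with S100a1 at a log2 difference of 0.96 ± 0.14, S100a4 at 1.63 ± 0.47 and Anxa3 at 0.89 ± 0.091.

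Most genes of cholesterol synthesis were higher, with 23 of 33 genes higher and 3 lower (median log2 difference 0.71, against 0.0073 over all genes tested). Fdps, an enzyme of the isoprenoid branch point, stood at 48.8, 85.8, 63.4, 71.3 and 61.7 TPM in KO and 19.9, 20.7, 20.0, 28.9 and 15.7 TPM in WT, a log2 difference of 1.61 ± 0.29 (adjusted p = 2.71e-05). Fdps was above WT in every KO library. Idi1 was higher with a log2 difference of 1.66 ± 0.27, the sterol carrier Stard4 with 1.54 ± 0.23, Mvd with 1.30 ± 0.26 and Tm7sf2 with 1.31 ± 0.29. Npc2, which moves cholesterol out of lysosomes, was lower with a log2 difference of -0.81 ± 0.10 and the inhibitory protein Insig2 with -0.50 ± 0.11.

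Genes of glucose use were more often lower, with 13 of 25 genes lower and 2 higher (median log2 difference -0.33). Hk3, a hexokinase of myeloid cells, stood at 136, 81.7, 90.2, 65.9 and 93.7 TPM in KO and 183, 257, 204, 216 and 287 TPM in WT, a log2 difference of -1.31 ± 0.18 (adjusted p = 2.08e-07). Hk1 was lower with -1.33 ± 0.19, Hk2 with -0.75 ± 0.11 and Pfkfb3, which speeds glycolysis, with -1.01 ± 0.19, whereas its relative Pfkfb4 stood at 29.8, 30.6, 28.8, 24.6 and 22.3 TPM in KO and 14.4, 9.50, 8.40, 9.77 and 8.66 TPM in WT, a log2 difference of 1.36 ± 0.13 (adjusted p = 4.22e-11). The enzymes Gapdh (log2 difference -0.072 ± 0.10), Aldoa (-0.042 ± 0.086) and Eno1 (-0.15 ± 0.079) were not called. Of 13 tested transcripts of the mitochondrial genome 6 were higher and 7 not called (median log2 difference 0.57), and without KO library 1 the higher ones were 10. mt-Nd1, a subunit of complex I, stood at 2593, 4578, 4284, 6762 and 4166 TPM in KO and 2175, 2022, 2271, 2327 and 2297 TPM in WT, a log2 difference of 0.95 ± 0.21 (adjusted p = 0.000424).

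Lysosomal genes were called higher in 24 of 48 and lower in 8, against 14.4% and 13.2% of all genes tested (median log2 difference 0.27). With only the compared groups in the fit 5 were lower. Gusb, a glucuronidase, stood at 274, 361, 292, 388 and 439 TPM in KO and 123, 153, 134, 177 and 173 TPM in WT, a log2 difference of 1.19 ± 0.11 (adjusted p = 2.63e-11). Hexa was higher with a log2 difference of 1.07 ± 0.11 and the proton pump subunit Atp6v0d2 with 1.80 ± 0.31. Ctsc, a protease that activates other proteases, stood at 1733, 1144, 1656, 1443 and 1389 TPM in KO and 2349, 2220.0, 2465, 2778 and 2351 TPM in WT, a log2 difference of -0.73 ± 0.12 (adjusted p = 7.08e-06). Ctsd (log2 difference 0.38 ± 0.18) and Ctsz (0.094 ± 0.095) were not called, though Ctsd was called higher without WT library 5 (0.50). Core autophagy genes had 9 of 27 lower (median log2 difference -0.11): besides Sqstm1, Wipi2 was lower with a log2 difference of -0.46 ± 0.13, Rb1cc1 with -0.41 ± 0.11 and Atg13 with -0.36 ± 0.09, Atg5 was higher with 0.47 ± 0.062, and Becn1 (0.0031 ± 0.075) and Map1lc3b (0.15 ± 0.086) were not called.

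Of genes around RIPK1 and cell death 14 of 39 were lower (median log2 difference -0.14). Mlkl, the executioner of necroptosis, stood at 36.1, 13.4, 23.6, 20.1 and 22.1 TPM in KO and 60.5, 93.2, 72, 78.8 and 106 TPM in WT, a log2 difference of -1.83 ± 0.20 (adjusted p = 2.04e-09). Genes that protect cells from death were lower too, Bcl2l1 (BCL-XL) with 45.6 ± 7.90 TPM in KO and 102 ± 7.59 TPM in WT (log2 difference -1.16 ± 0.11) and Cflar, the inhibitor of caspase 8, with -0.83 ± 0.091, as was the death gene Bbc3 with -1.33 ± 0.18. Members on both sides of cell death were therefore among the lower genes. Of genes linked to amyotrophic lateral sclerosis and frontotemporal dementia, 5 of 31 were higher and 5 lower, against 14.4% and 13.2% of all genes tested, so the list was close to the background. Without WT library 1 the higher members were 8, and without KO library 1 or WT library 5 the lower members were 3. Apart from Tbk1, Sqstm1 and Trem2, already given, Fig4 was higher with a log2 difference of 0.40 ± 0.09 and Ang with 0.72 ± 0.12. Grn (progranulin), at 956 ± 282 TPM in KO and 1285 ± 126 TPM in WT, was called lower with a log2 difference of -0.46 ± 0.12, though not with only the compared groups in the fit, and Optn, Sod1 (0.14 ± 0.085), Vcp (0.21 ± 0.09) and Pfn1 (0.22 ± 0.097) were not called. Vcp was called higher without KO library 1 (0.25), and Pfn1 without KO library 4 (0.27) or WT library 1 (0.28).

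In the joint list of the integrated stress response and endoplasmic reticulum chaperones 10 of 25 were lower and 6 higher. Ddit3, which encodes the factor CHOP, stood at 49.6, 22.5, 28.6, 25.3 and 24.5 TPM in KO and 129, 133, 114, 95.8 and 106 TPM in WT, a log2 difference of -1.96 ± 0.15 (adjusted p = 3.52e-13). Trib3 was lower with a log2 difference of -2.24 ± 0.27, Atf4 with -0.83 ± 0.12 and Ppp1r15a with -1.24 ± 0.14. Pdia4 was higher with a log2 difference of 0.77 ± 0.10, Calr with 0.62 ± 0.099 and Sdf2l1 with 0.74 ± 0.12, while Hspa5 (-0.19 ± 0.09) and Xbp1 (0.091 ± 0.06) were not called, though Hspa5 was called lower without KO library 5 (-0.25) or WT library 4 (-0.24). Cell cycle genes gave 4 of 40 higher and 2 lower, below the shares of all genes tested (14.4% and 13.2%), and without WT library 1 the higher members were 7. Among its called members were inhibitors of the cycle: Cdkn1a (p21) stood at 176, 147, 160.5, 164 and 243 TPM in KO and 292, 514, 427, 300.4 and 598 TPM in WT, a log2 difference of -1.22 ± 0.20 (adjusted p = 5.67e-06), and Cdkn2a was higher with 1.74 ± 0.18 and Cdkn2b with 1.42 ± 0.22. Mki67, a proliferation marker, was higher with a log2 difference of 1.62 ± 0.32, with KO library 1 within the WT range at 4.74 TPM.

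HET and untreated libraries give the levels beside this comparison. Between HET and WT with LPS, 2 of 15908 genes were called (0.0126%), Rpsa and its processed copy Rpsa-ps10, while 3812 were called between KO and HET (24.0%), which shares the KO libraries with the comparison above and holds Cre constant. Rsad2 had 579 ± 630.4 TPM in HET, against means of 36.0 in KO and 968 in WT, and a KO minus HET difference of -4.09 ± 0.51. For Nos2 the HET mean was 458 ± 405 TPM and the difference from HET -4.42 ± 0.40. Hp had 11.0 ± 7.12 TPM in HET and a difference from HET of 3.69 ± 0.33, Itgax 13.2 ± 8.68 TPM and 3.06 ± 0.41, and Marco 835 ± 175 TPM and 1.93 ± 0.33. In Rsad2, Hp, Itgax and Marco the HET mean was nearer to that of WT than to that of KO. For Nos2 it lay about midway on the TPM scale. The HET libraries varied widely in Rsad2 and Nos2. Untreated KO and WT differed in 5 of 15908 genes (0.0314%): Tbk1, Oasl2, Rpsa, Rpsa-ps10 and the predicted gene Gm23935, the last 4 named after their values were seen. Oasl2 was the one interferon-stimulated gene among them, at 7.68 ± 2.50 and 19.7 ± 5.23 TPM untreated and 254 ± 109.6 TPM in KO and 555 ± 36.6 TPM in WT with LPS (log2 difference -1.22 ± 0.23). Several of the genes lowest with LPS were near 0 in both untreated groups, such as Ccl7 at 0.473 ± 0.284 and 0.621 ± 0.755 TPM in untreated KO and WT and Nos2 at 0.00660 ± 0.0148 and 0.0680 ± 0.119. Among the genes higher with LPS, Hp was at 1.85 ± 0.842 and 2.48 ± 2.70 TPM untreated and Marco at 1.20 ± 0.974 and 1.91 ± 1.31, while Trem2 was at 949.6 ± 94.8 and 910.1 ± 65.3 and Lpl at 1016 ± 257 and 966 ± 239.5. Trem2 and Lpl thus had their untreated level far above both LPS groups, and KO with LPS was the nearer of the 2 to it.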

How the data were processed

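Expression was measured by poly(A) RNA sequencing of cultured mouse microglia. The authors deposited 1 table of TPM per gene and library, with 32070 genes. Per the submitters' processing notes, the tools included Picard, DRAGEN, Trimmomatic and FastQC and the genome build was mm10, and their versions are not given in the sources used here. TPM values keep no read depth, so no counting interval could be given, and the number of libraries limits the precision. The TPM values of 44 libraries in 9 groups were taken as log2(TPM + 1) after a filter of at least 1 TPM in at least 4 libraries, which left 15908 genes. A linear model with a mean per group was fitted with limma 3.58.1 (trended empirical Bayes) in R 4.3.3, so that all groups shared 1 estimate of the spread. KO under LPS was contrasted with WT under LPS, p-values were adjusted by the Benjamini-Hochberg method over all genes tested, and an adjusted p under 0.05 was a call. The fitting code was tested on simulated data. Single library shares were compared with two-sided exact permutation tests. No pair of the 44 libraries held identical values.

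Genes were named by a rule. It takes Tbk1 and Cx3cr1, every tested member of the 4 pathway lists, and the 25 highest and 25 lowest called genes whose groups did not overlap and whose higher group averaged 5 TPM or more, leaving out predicted genes. For each of the 62 lists it adds up to 6 called genes in each direction and up to 3 that were not called. The lists and the genes compared were chosen with earlier results of these data known. List members not matched by symbol were not analysed here. A few genes covered by this rule were left out of the text and figures but stay in the list counts. Promoter stretches come from the RefSeq table of GRCm38.p6, which held 10787 of the 15908 genes tested. The alternatives tried were another pseudocount, no filter, median-of-ratios and quantile scaling, a fit of the compared groups alone, the replicate number as a block, and leaving out each of the 10 libraries in turn.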

Additional observations from a re-analysis of the deposited data

Results flagged for a closer look

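For each named gene and library share, the highest and lowest of the 5 libraries of a group were compared with the next library, and a value was listed where that gap exceeded 0.71 of the range of the group. This held for 61 of 726 groups (8.4%), and 27 of the 61 fell on KO library 1 and 14 on WT library 5. The cutoff would flag about 1 in 20 groups if values were normally distributed and genes independent. TPM values of genes that vary together need not meet this, so no excess over chance can be read from the count. Values below are TPM, and no cause was tested.

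KO library 1 held the highest KO levels of interferon-stimulated genes: Cxcl10 (291.8), Ifit2 (155.8), Rsad2 (115.1), Isg20 (74.76), Ifi208 (14.99), Ifi44 (11.97), Ifit1bl1 (19.59), Iigp1 (8.459), Tgtp2 (5.306), Il18bp (14.82) and Ms4a4c (97.27). For Cxcl10, a chemokine that draws T cells, the next KO library stood at 81.98, and for Rsad2, the antiviral enzyme viperin, at 35.67. The same library was the highest KO library for the chemokines Ccl12 (185.6) and Ccl7 (65.77), the cytokine subunit Il27 (3.596), the Fc receptor genes Fcer1g (3271) and Fcgr4 (185.7), the stress and feedback genes Ddit3 (49.59) and Dusp1 (27.66), and Cbr2 (0.701), Itgal (305.2), Ms4a7 (311.6) and Pfn1 (2540). It was the lowest KO library for the kinase Jak2 (120.3), the signalling genes Tab3 (2.852) and Traf3 (14.22) and the autophagy genes Map1lc3b (96.75) and Wipi2 (17.98). KO library 2 was the highest for H2-Aa (4.387) and Pla2g7 (707.6) and the lowest for Ang (4.378), KO library 3 was the highest for the platelet chemokine Ppbp (10.84), and KO library 4 was the lowest for the glycolytic enzymes Aldoa (1913) and Eno1 (909.7).

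WT library 5 was the highest WT library for the monocyte chemokines Ccl2 (5933), Ccl7 (1051) and Ccl12 (1029), where the next WT library held 2702 for Ccl2. It was also the highest for the interferon-stimulated genes Ifit1 (839.4), Gbp4 (82.66), Gbp7 (131), Ifi208 (86.18) and Trim30c (72.36) and for Il1rn (2347), Spp1 (4820), Plin2 (550.8), Ripk2 (47.63), Tnfsf15 (46.6) and Dcstamp (1.451). WT library 1 was the highest for Cgas (13.36), Pycard (19.24), Olfml3 (14.74), Pfkfb4 (14.41) and Ptger4 (5.126) and the lowest for Clec4n (58.28) and Cxcl3 (317.1). WT library 2 was the highest for F13a1 (0.359), Gm23935 (3.133) and Pla2g7 (318.8) and the lowest for the interferon-stimulated gene Ifi27 (15.18). WT library 3 was the highest for Irf4 (0.677) and the lowest for Il18bp (17.6), and WT library 4 was the lowest for Il23a (0.333).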

How the results depend on the processing

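Under the alternatives, from 1591 to 2830 genes were called higher in KO and from 1561 to 2670 lower, against 2283 and 2100. The extremes came from fitting only the compared groups (1591 and 1561), from the replicate block (2830 higher) and from median-of-ratios scaling (2670 lower). Leaving out 1 library at a time gave 1872 to 2557 genes higher and 1851 to 2145 lower. No scaling moved the median of all genes tested by more than 0.05 on the log2 scale. Of the 285 called genes that the text names, 272 kept their direction and call under all 16 alternatives. The 13 that lost the call at least once were Acod1, Chuk, Grn, Ifngr1, Il12a, Il23a, Irak1, Irf1, Jak1, Mr1, Ptpn6, Tax1bp1 and Tyk2, and the cause was not tested. Of the 74 named genes that were not called, 23 passed the threshold under at least 1 alternative. The mitochondrial share of the TPM was 1.44 percentage points higher in KO by the means and 1.5 by the medians, where the exact permutation test no longer passed (p = 0.119). Without 1 library this difference ran from 0.960 to 1.84, and the test missed the threshold without KO library 4 (0.960, exact p = 0.0556) and without WT library 1 (1.38, exact p = 0.0556). The main fit did not treat same-numbered libraries as pairs. The deviations of same-numbered KO and WT libraries correlated at between -0.07 and 0.095 for numbers 1 to 4. Number 5 was the exception, at 0.43. The libraries numbered 5 also stood highest on the second principal component (31.8 to 37.8) and held the lowest mean levels of astrocyte, neuronal and oligodendrocyte markers in KO, WT and HET. In all, 2 of 5 libraries matched their own number best. With the replicate number as a block, 2830 genes were called higher and 2653 lower, and 9 of the 359 named genes became called while none of them lost its call. Depth is not recorded in TPM, so how far it limits low genes cannot be given.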
